A study of Arabidopsis thaliana with 2 samples.

Results

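ICS1, EDS5 and PBS3, the 3 genes that carry chorismate to salicylic acid (SA) by way of isochorismate, each had a several-fold higher signal in the csb3 mutant than in wild-type Arabidopsis. PBS3 was 14.3-fold higher, ICS1 6.30-fold and EDS5 4.74-fold. They are 3 probe sets of the 22810 on the ATH1 array, taken by their gene codes (AT1G74710 for ICS1, AT4G39030 for EDS5 and AT5G13320 for PBS3). The annotation of the array does not list any of the 3 probe sets, and their gene codes come from the study's own list of genes changed in csb3. They could therefore be named only because they were on that list, and their higher signal in csb3 is a description and not independent evidence of a change.

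RNA came from whole plants of Col-0 (wild type) and of csb3 in the Col-0 background, both grown for 5 weeks at 23 °C under 10 h of light and 14 h of dark, without inoculation or other treatment named in the labels. One array was analysed for each genotype, which leaves every difference without replication and without a p-value. The design text mentions 5 plants without saying whether they were pooled or how they were divided. csb3 was isolated in a screen for plants that constantly express a reporter driven by the promoter of the tomato subtilase gene P69C, and whether the Col-0 plants carried that reporter is not given in the sources used here. As background, csb3 is a lesion in HDS, which acts in plastids to make isoprenoid precursors, and HDS has no named probe set here, so the mutant label could not be checked on it.

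SA is the hormone that drives resistance to biotrophic pathogens. In infected Arabidopsis most of it is made from chorismate, the end product of the shikimate pathway in the plastid. ICS1 (also SID2 or EDS16) is the isochorismate synthase that turns chorismate into isochorismate inside the plastid. EDS5 (also SID1) is a transporter of the MATE family in the plastid envelope that moves isochorismate to the cytosol. PBS3 (also GH3.12 or WIN3) is an acyl acid amido synthetase of the GH3 family that joins isochorismate to glutamate, and the product breaks down to SA, a step that the acyltransferase-related protein EPS1 speeds up. Loss of any of these genes lowers pathogen-induced SA.

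The values are MAS5 signals on a linear scale, and signals below 50 were set to 50 before a ratio was taken. ICS1, the first committed enzyme of the route, gave a signal of 128.3 on the Col-0 array and of 808.8 on the csb3 array. On the log2 scale csb3 exceeded Col-0 by 2.66. EDS5, the exporter, gave 110.7 on the Col-0 array and 524.2 on the csb3 array, a log2 ratio of 2.24. PBS3, the cytosolic enzyme, gave 62.4 on the Col-0 array and 895.1 on the csb3 array, a log2 ratio of 3.84. All 3 genes were above 50 on both arrays, and for each gene csb3 was the higher array. PBS3 lay closest to the limit of 50 in Col-0, so its ratio depends most on the dim end of the scale. With a lower limit of 100 in place of 50 its excess in csb3 was at least 8.95-fold, while ICS1 and EDS5 kept the same ratio.

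**Figure D1:**
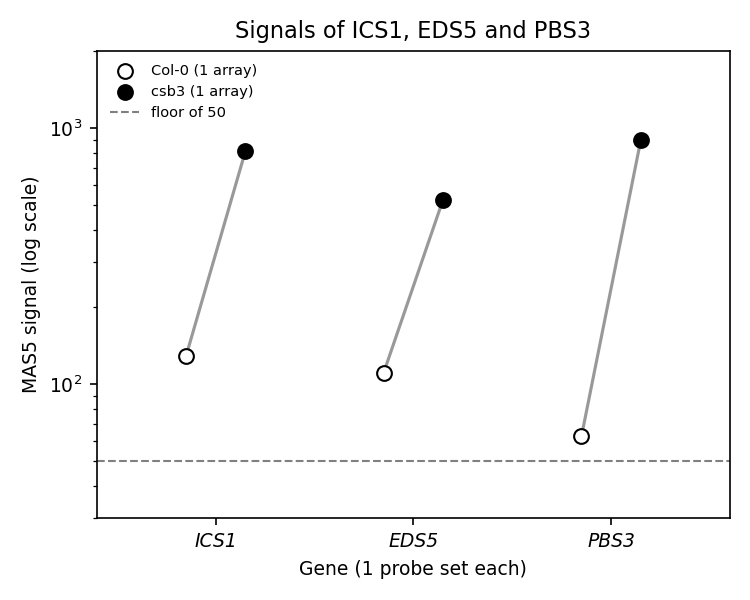
MAS5 signal (vertical axis, log scale) of ICS1, EDS5 and PBS3 on the Col-0 array (open circles) and the csb3 array (filled circles), with 1 probe set a gene, 1 array a genotype and the limit of 50 as a dashed line. All 3 lines go up from Col-0 to csb3, and that of PBS3, from 62.4 to 895.1, is the steepest. Heights are not to be compared between genes, since each probe set has its own response.

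With 1 array per genotype, the only spread that can be measured is that between probe sets of the same gene on this pair of arrays. Its SD was 0.65 on the log2 scale for a single ratio (45 genes with more than 1 probe set at 50 or more on both arrays), and it does not include differences between plants. One such SD around the ICS1 ratio spans 4.02-fold to 9.88-fold. The same span was 3.02-fold to 7.42-fold for EDS5 and 9.15-fold to 22.5-fold for PBS3. Here up and down mean a ratio of at least 2-fold in that direction.

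Over the whole array, 1041 probe sets were up at 2-fold, which is 4.56% of 22810, 624 were down at 2-fold (2.74%), and 202 were up at 4-fold, which is 0.886%. All 3 genes were up at 4-fold, but since they were named through a list of changed genes, nothing is read from their count. With the limit of 50, 9 probe sets, PBS3 included, had a log2 ratio as high as that of PBS3, and 4 of them had 50 or more on both arrays. A ratio at least as high as that of ICS1 was reached by 70 probe sets, and one as high as that of EDS5 by 136. These places depend on how dim probe sets are treated. With a limit of 20 the counts were 23 for PBS3, 134 for ICS1 and 226 for EDS5, with a limit of 100 they were 14, 39 and 84, and with no limit 139, 507 and 772. With 32 added to each signal, 20 probe sets reached the ratio of PBS3. Within its own array, which does not depend on the scaling between arrays, the PBS3 signal stood at percentile 45.1 in Col-0 and at percentile 91.2 in csb3. ICS1 moved from percentile 59.8 to 90.0 and EDS5 from 56.7 to 84.5.

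**Figure D2:**
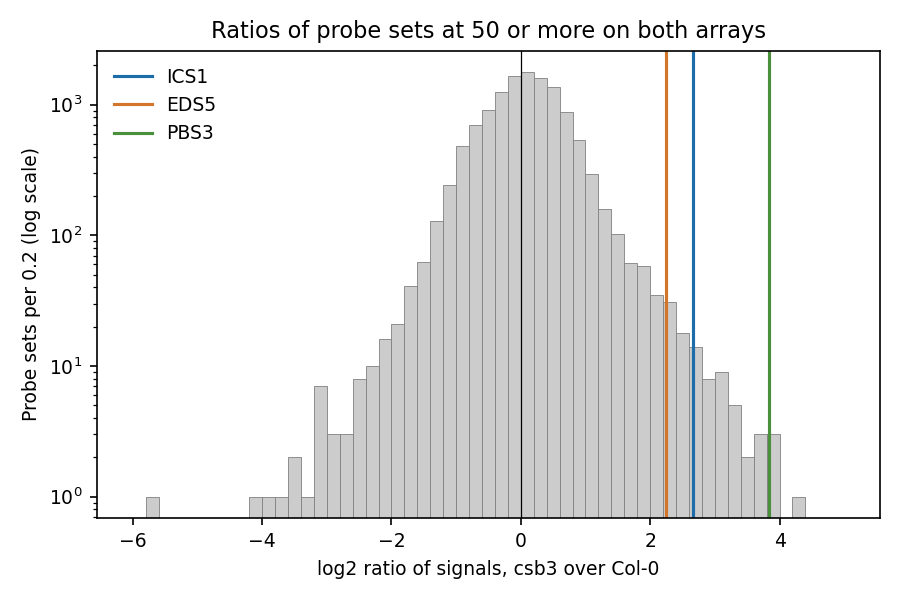
Histogram of log2 ratios, csb3 over Col-0 (horizontal axis, bins of 0.2), of the 12540 probe sets that reached 50 on both arrays, with the number of probe sets on a log axis and coloured lines at EDS5 (2.24), ICS1 (2.66) and PBS3 (3.84). The 3 lines lie in the right tail, where PBS3 is exceeded or equalled by 4 probe sets, itself included.

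On this pair of arrays PBS3 had the highest ratio of the 3 genes of the route. PBS3 exceeded ICS1 by 1.19 on the log2 scale and EDS5 by 1.60, against an SD of 0.92 for a difference between probe sets. The order of ICS1 and EDS5 is not resolved, since their ratios differed by 0.41. That SD leaves out differences between plants, so the place of PBS3 above the others is a description of these arrays only. With 32 added to each signal the gap between PBS3 and ICS1 narrowed to 0.90, within that SD, and that between PBS3 and EDS5 to 1.33. A limit of 100 lies above the Col-0 signal of PBS3, so it gives only bounds. With that limit PBS3 exceeded ICS1 by at least 0.51, a bound within that SD, and EDS5 by at least 0.92, about equal to it. Scaling by a constant, or a limit below the signals of the genes, cannot alter these gaps.

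Of the other genes listed for the isochorismate route, ICS2, the second isochorismate synthase, and EPS1 have no named probe set here. AT2G21340, which was put on the list with the route's genes but has no name in the annotation used, went the other way. Its signal was 552.2 on the Col-0 array against 246.4 on the csb3 array, 2.24-fold lower in the mutant. This call is lost when the arrays are scaled on spike-in controls, where its log2 ratio is -0.18.

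The steps around the route could be followed in the genes that the array annotation names, whose naming did not depend on being changed. For the supply of chorismate, 2 of 10 listed genes have a named probe set, and neither was up or down at 2-fold. AT1G22410 was at 1504.4 in Col-0 and at 1639.3 in csb3, and AT5G66120 at 719.8 and 708.5. Isochorismate is also the starting material of phylloquinone, the vitamin K of photosystem I, and 3 of 6 listed genes of that branch have a named probe set. MENG, a methyltransferase late in that branch, had 259.3 in Col-0 and 242.9 in csb3. NDC1, a plastid dehydrogenase needed for the same methylation, had 283.9 and 257.8. PHYLLO, the enzyme that commits isochorismate to phylloquinone, had 54.0 in Col-0 and 5.0 in csb3, near or below the limit of 50, so that it was at least 1.08-fold lower, a bound that leaves its call unsettled. Its log2 ratio was -1.43 with a limit of 20, -1.22 with 32 added and -3.43 with no limit, each beyond 2-fold lower. MENG and NDC1 did not reach 2-fold. The phenylalanine route to SA is represented by AIM1 alone, a peroxisomal beta-oxidation enzyme, with 873.7 in Col-0 and 973.7 in csb3.

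Of 13 listed genes whose products convert SA, 6 have a named probe set, and 4 of these were up in csb3 while 2 were below 50 on both arrays. UGT76B1, a glucosyltransferase that acts on SA, was measured at 169.9 in csb3 against 12.5 in Col-0, so at least 3.40-fold higher. GH3.5 (WES1), an amido synthetase that accepts auxin and SA, had 84.9 in Col-0 and 306.0 in csb3, 3.60-fold higher. Both are named by the annotation. It names 4 of the 6, of which 2 were up, beside 3.58% of all probe sets it names. The SA hydroxylases DMR6 and DLO1 (AT4G10500) were named only through the list of changed genes, where 68.5% of all probe sets so named were up. DMR6 had 923.9 in Col-0 and 4106.4 in csb3, 4.44-fold higher. DLO1 was measured at 513.8 in csb3 against 12.0 in Col-0, so at least 10.3-fold higher. The members below 50 on both arrays were the methyltransferase BSMT1 and the glucosyltransferase UGT74F1. The call of UGT76B1 is lost with a limit of 100.

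Among 22 listed regulators of ICS1 transcription, 4 have a named probe set. EIN3, an ethylene response factor that represses ICS1, is named by the annotation and had 976.4 in Col-0 and 1232.4 in csb3, short of 2-fold. The other 3 are named only through the list of changed genes, and all were up, beside 68.5% of all probe sets named in that way. WRKY54, which with WRKY70 restrains SA synthesis, was 6.05-fold higher in csb3, with signals of 171.4 and 1037.8. WRKY46 was 3.77-fold higher. ANAC019, a NAC factor that represses ICS1 during coronatine signalling, was 3.36-fold higher. SARD1 and CBP60G, the main activators of ICS1, have no named probe set here.

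Downstream of SA, PR1, the usual marker of SA responses, was 13.3-fold higher in csb3, and the partners EDS1 and PAD4, which act in the loop that amplifies SA synthesis, were 4.44-fold and at least 5.37-fold higher. SAG101, another partner of EDS1 and named by the annotation, had 51.9 in Col-0 and 211.9 in csb3, 4.08-fold higher. AT5G52810, also named by the annotation, had 220.4 and 436.4, just short of 2-fold. Of the 9 genes listed for SA markers and this loop, 7 have a named probe set and 6 were up. The 6 include FMO1 and ALD1, 2 enzymes of systemic resistance signalling. The annotation names 2 of the 7, and 1 of these was up, beside 3.58% of all probe sets it names. The other 5, which are PR1, EDS1, PAD4, FMO1 and ALD1, are named only through the list of changed genes. All 5 were up, where 68.5% of all probe sets named in that way were up. Among 10 listed genes of SA perception, NIMIN1, which binds the SA receptor NPR1, is the 1 with a named probe set. It is also named only through that list, and it was at least 9.65-fold higher. None of the 7 listed genes for other uses of chorismate has a named probe set here.

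Over all 9 lists around SA, without ICS1, EDS5 and PBS3, 25 of 86 genes have a named probe set. Of the 14 that the annotation names, 3 were up, 1 was down, 8 were neither and 2 were below 50 on both arrays, where 3.58% of all annotation-named probe sets were up and 2.65% down. The median log2 ratio of the 12 of these that were measured on at least 1 array was 0.14, beside 0.05 for all 7790 such probe sets of the annotation. All 11 that were named through the list of changed genes were up, where 68.5% of all probe sets named in that way were up. So 11 of the 14 genes that were up owe their names to that list.

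**Figure D3:**
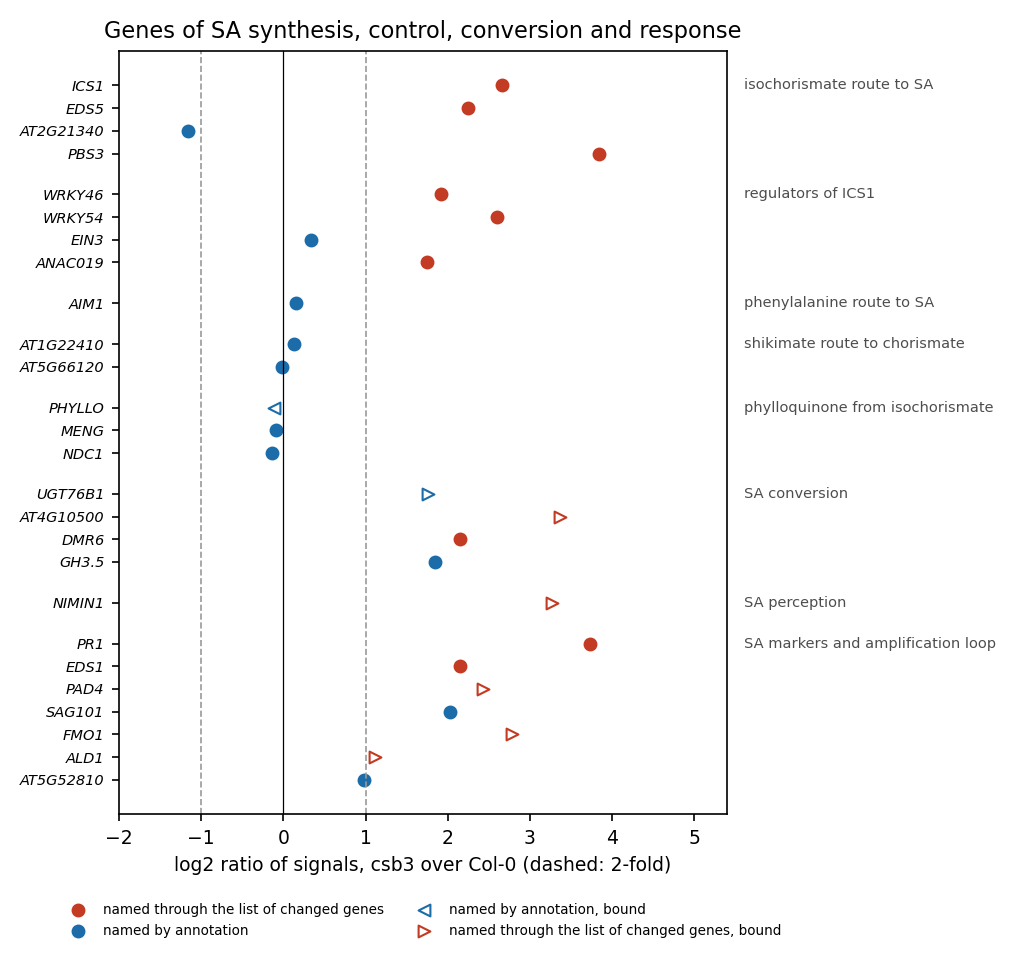
Log2 ratio of csb3 to Col-0 (horizontal axis, dashed lines at 2-fold) for each gene of the lists around SA with a named probe set at 50 or more on at least 1 array, grouped by list. Blue marks genes named by the array annotation and red marks those named through the study's list of changed genes, and open triangles are bounds with 1 signal below 50. The red points all lie beyond 2-fold, and most blue points, such as EIN3 at 0.34 and AIM1 at 0.16, lie between the dashed lines.

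PBS3 belongs to the GH3 family, most of whose members join amino acids to auxin or jasmonate. A search of symbols and synonyms found 11 GH3 genes, of which 8 have a named probe set, and 4 of these, PBS3 included, were up. Of the 5 named by the annotation 2 were up, beside 3.58% of all probe sets it names, and of the 3 named through the list of changed genes 2 were up, beside 68.5%. DFL1 (GH3.6), an auxin-conjugating member named through the list of changed genes, had 91.2 in Col-0 and 686.4 in csb3, 7.53-fold higher. GH3.3, another auxin-conjugating member and named by the annotation, was measured at 207.8 in csb3 against 15.3 in Col-0, so at least 4.16-fold higher. GH3.5, described above, is the fourth. GH3.4, with a probe set of the kind that may detect several related genes, had 21.5 and 84.2, and GH3.17 had 28.1 and 65.8, bounds of at least 1.68-fold and 1.32-fold that both pass 2-fold with a limit of 20. GH3.1 and GH3.9 were below 50 on both arrays. With the limit of 50, PBS3 had the highest ratio of the 8.

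The genes that flank ICS1, EDS5 and PBS3 on their chromosomes were examined in the order of protein-coding genes in RefSeq (TAIR10.1), with 2 on each side. Next to ICS1 on chromosome 1, TRZ1, a tRNA-processing enzyme, was at 49.8 (Col-0) and 61.9 (csb3), and QKY, a membrane protein of organ development, had 164.4 and 190.2. Farther out, IQD31 and AT1G74730 were also short of 2-fold. Around EDS5 on chromosome 4, AT4G39050 was at 254.8 (Col-0) and 287.4 (csb3), the glycosyl hydrolase gene GH9B18 was below 50 on both arrays, and both immediate neighbours have no named probe set. Beside PBS3 on chromosome 5, AT5G13310 had 109.3 in Col-0 and 104.6 in csb3. On the other side of PBS3, RAP2.6L, an AP2-domain transcription factor named through the list of changed genes, was measured at 171.4 in csb3 against 8.0 in Col-0, so at least 3.43-fold higher. It was the 1 of the 8 flanking genes with a named probe set that reached 2-fold, beside 4.56% up over all probe sets, and it is also the 1 named through the list of changed genes, where 68.5% were up. With spike-in scaling, which raises the csb3 signals, TRZ1, QKY and AT4G39050 passed 2-fold as well.

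The genes most like each member were taken as the 3 named probe sets with the nearest log2 ratio, among those with 50 or more on both arrays, which over 2 samples compares a single ratio. Nearest to PBS3 were the lipid transfer protein gene LTP6 (3.95), PR1 (3.73) and AT4G29030 (3.72). Nearest to ICS1 were AT1G10340 (2.65), the receptor-like protein gene RLP34 (2.65) and the patatin-like lipase gene PLA2A (2.67). Nearest to EDS5 were AT1G56060 (2.23), AT5G46230 (2.26) and the chaperone gene ATERDJ3A (2.26). Of these genes, LTP6, PR1, RLP34, PLA2A and ATERDJ3A are named only through the list of changed genes. The probe set of RLP34 is of the kind that may detect several related genes.

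Both arrays had been scaled to the same mean of 250 after leaving out the 2% dimmest and 2% brightest probe sets, and 50 or more was reached by 13529 of them on the Col-0 array and 13418 on the csb3 array. The 18 probe sets of spike-in controls were all lower in csb3 (median log2 ratio -0.98). They belong to the bio and cre control transcripts, with several probe sets each, so they are not 18 separate controls. Scaling on them gave larger ratios for the 3 genes, 28.3-fold for PBS3, 12.4-fold for ICS1 and 9.34-fold for EDS5. Whether these controls follow the amount of plant RNA was not tested. As a measure of RNA quality, the 3′ to 5′ signal ratio of actin was 2.06 on the Col-0 array and 4.91 on the csb3 array, that of GAPDH 1.29 and 1.40, and that of ubiquitin 2.66 and 1.98. Of 4 listed root markers, PYK10 and NAI2 were up while the root hair expansins EXPA7 and EXPA18 did not reach 50 on either array. The signals of the 4 sum to 85.0 for Col-0 and 1518 for csb3, and no marker was at 0. Most of the csb3 sum came from PYK10 alone, at 1219.8, with NAI2 at 241.1. The senescence markers SAG12 and SAG13, named through the list of changed genes, were both up, with signals that sum to 104.1 for Col-0 and 1320 for csb3, and neither at 0. The listed flower, seed and leaf markers have no named probe set here. The part of RNA quality, organ make-up and leaf age in the higher signals of ICS1, EDS5 and PBS3 was not tested. In RNA of whole plants, more cells that express a gene and more RNA of it per cell cannot be told apart.

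**Figure D4:**
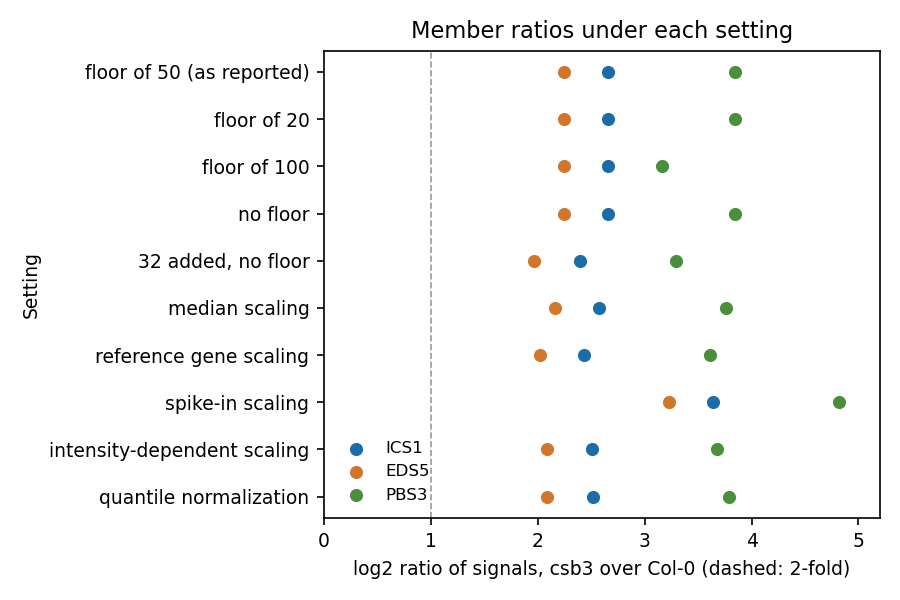
Log2 ratio of csb3 to Col-0 (horizontal axis, dashed line at 2-fold) of ICS1, EDS5 and PBS3 under each of 10 settings of the floor and the scaling (vertical axis). Each point is the ratio of 1 array pair. All points lie beyond 2-fold, the lowest being EDS5 at 1.96 with 32 added. PBS3 drops to 3.16 with a floor of 100, which is a bound because its Col-0 signal lies below that floor.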

How the data were processed

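RNA of whole Col-0 and csb3 plants was hybridised to Affymetrix ATH1 arrays. The deposited values are intensity signals on a linear scale, 1 per probe set, which the authors computed with MAS5 and scaled on each array to a mean of 250 without the lowest and highest 2%. The methods describe SAM on triplicates, which 1 array per genotype does not allow. Signals below 50 were set to 50, the csb3 signal was divided by the Col-0 signal and expressed as log2, and probe sets were called at 2-fold and 4-fold. Where 1 of the signals was below 50 the fold is a bound, and where both were it is left out.

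The annotation gives a single gene for 13513 probe sets, several for 503, and leaves 8794 unlisted. RefSeq (TAIR10.1) matched 13436 and served for names and gene order. A further 219 unlisted probe sets took their code from the study's list of changed genes, and 3 with conflicting codes were left unnamed. That list's own ratios and p-values were not used. The genes named are the 3 members, members of 9 lists of 89 genes around SA and of marker lists, GH3 genes, 2 flanking genes on each side and the 3 most alike. In the lists, the brightest probe set stood for a gene that has more than 1. For flanking genes the first probe set was taken, and the searches for GH3 genes and for the most alike kept every named probe set. Members and lists were chosen with earlier results of these data known. Python 3.11.15, NumPy 2.4.6, pandas 2.3.3, statsmodels 0.14.6 and matplotlib 3.10.9 were used, and the ratio and calls were tested on simulated data. The alternatives were 3 other floors, 32 added to each signal and 5 scalings. The number of arrays limits the precision.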

Additional observations from a re-analysis of the deposited data

How the results depend on the processing

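ICS1, EDS5 and PBS3, named because they were listed as changed, stayed beyond 2-fold under the 9 alternatives. No called gene of the lists around SA changed sign, but most settings could not have changed one. A floor or an added constant cannot reverse a ratio. The constant shifts (0.08, 0.23 and -0.98 on the log2 scale) are each smaller than the 2-fold of a call. Only intensity-dependent scaling and quantile normalization were free to change a direction. Spike-in scaling gave log2 ratios of 3.64 for ICS1, 3.22 for EDS5 and 4.82 for PBS3, by construction of its shift of -0.98, and a floor of 100 gave 3.16 for PBS3, whose Col-0 signal lies below it. EDS5 fell short of 4-fold only with 32 added, at 3.90-fold. Of the 18 called genes of these lists, UGT76B1 and ALD1 lost their call with a floor of 100, ALD1 with scaling on 2 reference genes (AT4G34270 and AT2G28390) and AT2G21340 with spike-in scaling. Among genes short of 2-fold, PHYLLO passed it as lower in csb3 with a floor of 20 (-1.43), 32 added (-1.22) and no floor (-3.43), and EIN3, AIM1, AT1G22410 and AT5G52810 passed it as higher with spike-in scaling. Probe sets up at 2-fold numbered 2698 without a floor, 660 with reference gene scaling and 7671 with spike-in scaling, against 1041. At 4-fold there were 323 with a floor of 20, 119 with a floor of 100, 974 without a floor and 995 with spike-in scaling, against 202. Quantile normalization was chosen after the data were seen. No paired analysis was possible because, here, there is a single array for Col-0 and a single one for csb3. Signal over background limits PBS3 in Col-0 most.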
